A study of Mus musculus with 4 samples.

Results

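The circadian clock genes described here are 10 genes of the molecular clock, namely Dbp, Tef, Nr1d1, Nr1d2, Per1, Per2, Per3, Arntl (also called Bmal1), Clock and Cry1. They were taken by symbol from the platform annotation of the array, on which 25 of 45101 probe sets name only 1 of them, and they make up 10 of the 18193 genes with a probe set of their own. The list was chosen by gene symbol with the RMA differences of Dbp and other clock genes between these 4 arrays already in view, so those levels and differences are descriptions and carry no test. Macrophages came from the peritoneal cavity of mice given thioglycolate, an irritant that recruits them, and were cultured on slides for 18 hours. The groups were Dap12-KO macrophages with interleukin-4 (IL-4), Dap12-KO macrophages left untreated, wild type (WT) macrophages with IL-4 and WT macrophages left untreated. Each group was measured on 1 array, so no value has a replicate, and precision is limited throughout by there being so few arrays. DAP12, encoded by Tyrobp, is an adaptor that carries signals from partner receptors, and IL-4 is a cytokine that drives alternative activation. The sample titles say KO where the design text speaks of a knockdown, and strain, age, sex, pooling of animals and the hour of the day at harvest are not given in the sources used here. The study's stated aim was to see what loss of DAP12 does to macrophage expression at rest and in the response to IL-4.

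The mammalian clock is a loop of transcription and repression. ARNTL and CLOCK pair and bind E-box motifs, where they activate the period genes, the cryptochromes, Nr1d1, Nr1d2, Dbp and Tef. PER and CRY proteins then repress that pair, and the REV-ERB receptors encoded by Nr1d1 and Nr1d2 repress Arntl through ROR response elements. DBP and TEF belong to the PAR family of leucine zipper factors, which bind D-box motifs and pass the rhythm on to output genes. Macrophages are known to hold a working clock, and in them REV-ERB receptors are known to repress inflammatory and protease genes. Arntl transcript is known to peak when Dbp and Nr1d1 transcripts are low.

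All values are RMA values on the log2 scale, and a gene is called higher or lower where 2 arrays differed by 2-fold or more. Where a gene had several probe sets, the brightest over the 4 arrays stands for it. The level floor, the median of all values, was 6.39, and all 10 clock genes reached it on at least 1 array, as did 12767 genes in all. Dap12-KO with IL-4 had a narrower spread of values than the rest, with a middle 50% spanning 2.54 log2 units, against 3.19 to 3.25 on the other 3 arrays. Over all genes above the floor, the median difference was −0.40 for IL-4 against untreated in Dap12-KO and −0.39 for Dap12-KO against WT with IL-4. It was 0.03 for Dap12-KO against WT untreated. Values after cyclic loess, a scaling that levels such trends between arrays, are therefore given too for differences of the clock genes that use that array. Tyrobp, the targeted gene, read 13.27 and 14.03 on the Dap12-KO arrays with IL-4 and untreated, against 14.13 and 14.39 on the WT arrays with IL-4 and untreated. It thus remained bright in both libraries labelled Dap12-KO, and where its probes lie relative to the deleted part is not known, so each direction between genotypes rests on the labels. All 8 macrophage markers were above the floor on every array. With IL-4, all 6 IL-4 response markers were higher in Dap12-KO and 5 of 6 in WT, where Retnla differed by 0.66. Over all genes, 8.04% were higher with IL-4 in Dap12-KO and 1.21% in WT. In such bulk samples, fewer cells of a type and less RNA per cell cannot be told apart.

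Dbp, the output factor, had the widest range of the clock genes. Its brightest probe set read 7.10 and 10.55 on the Dap12-KO arrays with IL-4 and untreated, against 7.01 and 7.49 on the WT arrays with IL-4 and untreated. Untreated Dap12-KO cells thus stood alone at the high end, while the other 3 arrays lay close together. The difference of 3.06 between the untreated arrays, an 8.34-fold higher level in Dap12-KO, was the 3rd highest of 12767 genes. With IL-4 in Dap12-KO the difference was −3.44 as deposited, the 5th lowest of those genes, and −2.91 after cyclic loess. Both large differences use the untreated Dap12-KO array, so that single array sets them both. The second Dbp probe set read 7.58 and 8.71 in Dap12-KO with IL-4 and untreated, against 6.06 and 6.28 in WT with IL-4 and untreated. It placed the same array highest, with a difference of 2.43 between the untreated arrays, and a smaller difference of −1.13 with IL-4 in Dap12-KO, or −0.91 after cyclic loess. Between both IL-4 arrays the probe sets disagreed in size, with Dap12-KO minus WT at 1.52 by the second and 0.09 by the brightest. After cyclic loess these were 1.74 and 0.66.

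Tef, the other PAR factor of the list, was also highest on the untreated Dap12-KO array, by a smaller margin. Its brightest probe set read 9.57 and 10.56 in Dap12-KO with IL-4 and untreated, against 9.38 and 9.56 in WT with IL-4 and untreated. The untreated arrays differed 1.99-fold, just under the threshold as deposited, and by a log2 difference of 1.10 after cyclic loess, just over it. A second probe set, at 8.27 in untreated Dap12-KO against 7.45 in untreated WT, was higher by 0.82. The third stayed below the floor on all 4 arrays. IL-4 against untreated in Dap12-KO gave −0.99 at the brightest probe set, or −0.33 after cyclic loess. At the second it gave −1.31, or −0.92 after cyclic loess. Between both IL-4 arrays, Dap12-KO minus WT was 0.19 at the brightest and −0.54 at the second. After cyclic loess these were 0.92 and −0.14.

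Nr1d1 and Nr1d2 encode the REV-ERB receptors, the repressors of Arntl. Nr1d2 read 11.11 and 12.41 in Dap12-KO with IL-4 and untreated, against 11.11 and 11.13 in WT with IL-4 and untreated. As deposited, untreated Dap12-KO was again the one high array, and the other 3 lay within 0.02 of each other. After cyclic loess Nr1d2 read 11.57 and 12.3 in Dap12-KO with IL-4 and untreated, against 10.94 and 10.92 in WT with IL-4 and untreated. The Nr1d2 difference between the untreated arrays was 1.28, and with IL-4 in Dap12-KO it was −1.30, or −0.73 after cyclic loess. The second Nr1d2 probe set stayed below the floor on every array. It gave smaller differences as deposited, 0.48 between the untreated arrays and −0.55 with IL-4 in Dap12-KO, or −0.78 there after cyclic loess. Nr1d1 did not share the pattern of Nr1d2 as deposited, since its only probe set was high on both Dap12-KO arrays. It read 7.65 and 7.64 in Dap12-KO with IL-4 and untreated, against 7.04 and 6.86 in WT with IL-4 and untreated. The Nr1d1 difference between genotypes was 0.77 untreated and 0.62 with IL-4, below 2-fold in both. Cyclic loess put these at 0.82 and 0.90. With IL-4, Nr1d1 differed from untreated by 0.01 in Dap12-KO, or 0.30 after cyclic loess, and by 0.17 in WT.

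**Figure D1:**
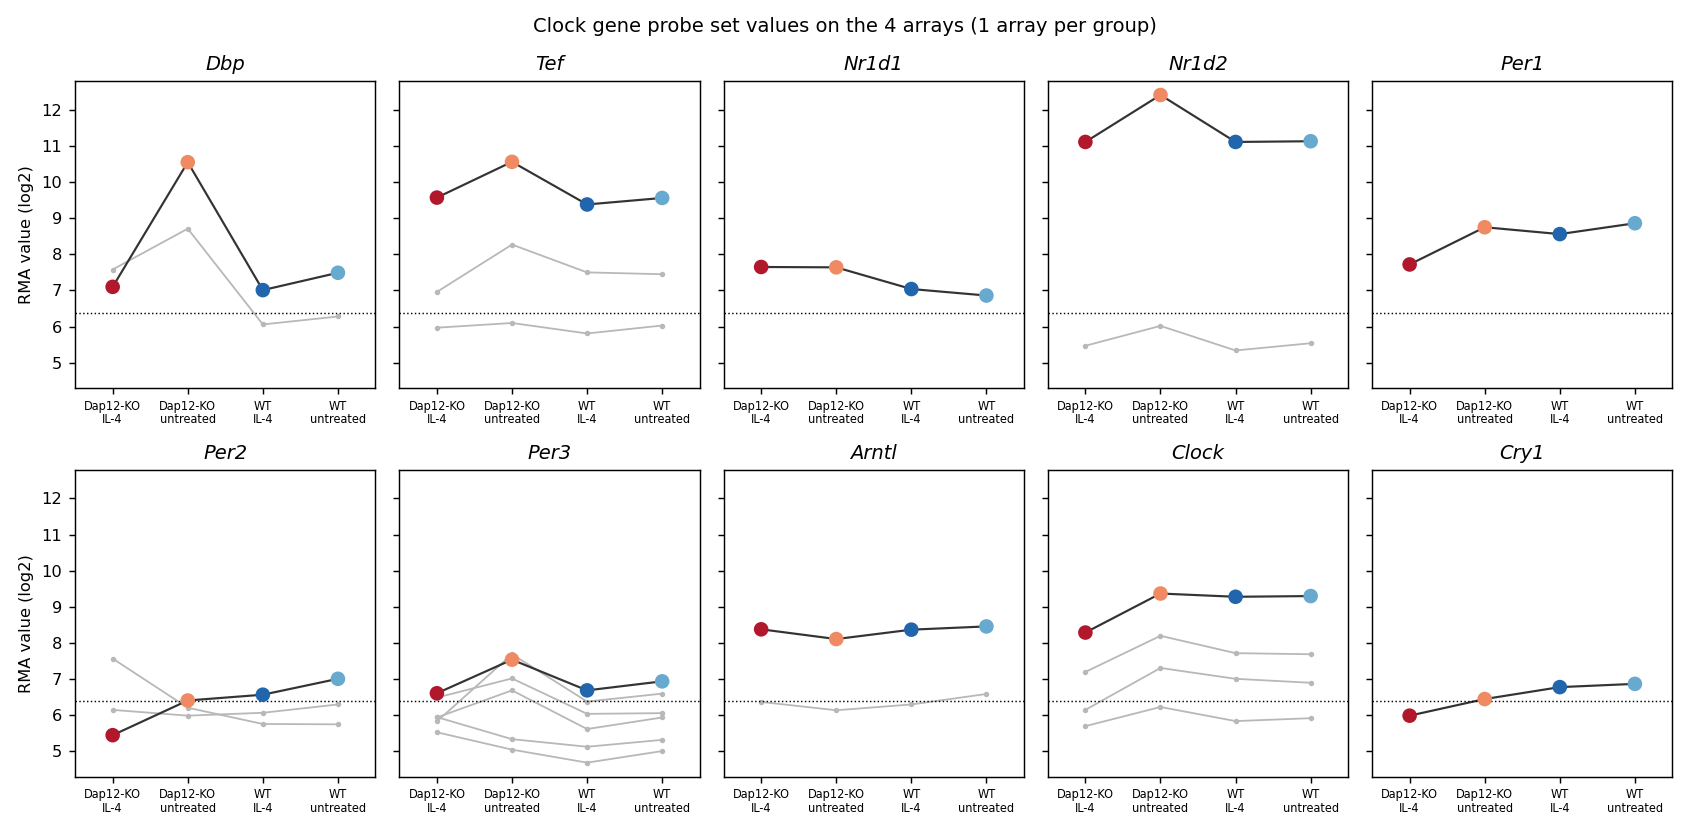
RMA value (log2, vertical axis) of each clock gene on the 4 arrays (horizontal axis, 1 array per group). Coloured points are the brightest probe set of the gene, grey lines its other probe sets, lines join 1 probe set's values, and the dotted line is the level floor at 6.39. Dbp, Tef, Nr1d2, Per3 and Clock have their highest value on the untreated Dap12-KO array, at 10.55, 10.56, 12.41, 7.54 and 9.37.

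The period genes, which encode repressors of ARNTL and CLOCK, did not share 1 pattern. Per3 was highest on the untreated Dap12-KO array, as Dbp was, at 6.61 and 7.54 in Dap12-KO with IL-4 and untreated, against 6.69 and 6.94 in WT with IL-4 and untreated. Of the 6 Per3 probe sets, 4 reached the floor, and these were higher in untreated Dap12-KO than in untreated WT by 0.60, 0.74, 0.97 and 1.10. All 4 of those probe sets were lower with IL-4 in Dap12-KO, by differences of −0.92, −0.75, −0.53 and −1.87 in the same order. After cyclic loess these were −0.81, −0.99, −0.68 and −1.92.

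Per1 was nearly level between the untreated arrays, at 8.75 in Dap12-KO against 8.86 in WT. With IL-4 it read 7.72 in Dap12-KO and 8.56 in WT, so the Dap12-KO array with IL-4 was the low one. Its difference with IL-4 in Dap12-KO was −1.03, or −0.42 after cyclic loess, and in WT it was −0.30. Per2 gave no settled direction. Its brightest probe set read 5.45 and 6.41 in Dap12-KO with IL-4 and untreated, against 6.57 and 7.01 in WT with IL-4 and untreated. Another Per2 probe set read 7.57 and 6.21 in Dap12-KO with IL-4 and untreated, against 5.76 and 5.75 in WT with IL-4 and untreated. For IL-4 in Dap12-KO the brightest Per2 probe set thus differed by −0.96 and the other by 1.35, or by −1.13 and 1.17 after cyclic loess.

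Arntl and Clock encode the activating pair, and neither differed by 2-fold between the untreated arrays. Arntl had the smallest range of the clock genes, 0.34, with 8.38 and 8.11 in Dap12-KO with IL-4 and untreated, against 8.37 and 8.46 in WT with IL-4 and untreated. The untreated Dap12-KO array, the highest for Dbp, Tef, Nr1d2, Per3 and Clock, was the lowest for Arntl, by a difference of −0.34 from untreated WT. Its second probe set gave −0.45. With IL-4 in Dap12-KO, Arntl differed by 0.27 as deposited and by 0.86 after cyclic loess, the sign opposite to that of Dbp under each scaling, and by 0.23 and 0.06 at the second probe set. Clock read 8.29 and 9.37 in Dap12-KO with IL-4 and untreated, against 9.28 and 9.30 in WT with IL-4 and untreated. Untreated Dap12-KO was above untreated WT by 0.06, and by 0.52 and 0.42 at the other 2 Clock probe sets that reached the floor. Dap12-KO with IL-4 was the low array for Clock, by −1.08 against untreated Dap12-KO, or −0.41 after cyclic loess. Those other 2 probe sets differed by −1.0 and −1.16 there, or by −0.56 and −1.10 after cyclic loess. Cry1, a cryptochrome repressor with 1 probe set, read 5.99 and 6.45 in Dap12-KO with IL-4 and untreated, against 6.78 and 6.87 in WT with IL-4 and untreated. It was lower in Dap12-KO in both conditions, by differences of −0.79 with IL-4, or −0.92 after cyclic loess, and −0.42 untreated, and close to the floor throughout.

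Between the untreated arrays, 6 of the 10 clock genes were above 0 and 4 below. Of the 10, Dbp and Nr1d2 were higher by 2-fold in untreated Dap12-KO than in untreated WT and 0 were lower, where 3.12% of all genes were higher and 3.41% lower. Their median difference was 0.33, against 0.03 over all genes above the floor. After cyclic loess 3 were higher, the added gene being Tef, and 0 lower, where 3.64% of all genes were higher and 2.86% lower. Leaving out the Dap12-KO array with IL-4 from probe set choice, floor and scaling left these counts at 2 as deposited and 3 after cyclic loess. The deposited values of the untreated arrays stay the same without that array. The as-deposited count could thus change only through probe set choice or floor.

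Between both Dap12-KO arrays, 8 of the 10 clock genes were below 0 and 2 above. By 2-fold, 4 were lower with IL-4, namely Dbp, Nr1d2, Per1 and Clock, and 0 were higher. As deposited, 17.6% of all genes were lower and 8.04% higher in that comparison, and the median clock gene differed by −0.98 against −0.40 for the median gene. After cyclic loess 2 were lower, Dbp and Per2, and 0 higher, where 5.91% of all genes were lower and 9.79% higher. The medians were then −0.49 for the clock genes and 0.09 for all genes. This comparison shares the untreated Dap12-KO array with the one between untreated arrays.

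In WT, the clock genes lay close to their untreated levels with IL-4. Differences ran from −0.48 for Dbp to 0.17 for Nr1d1, with 9 of 10 below 0, or 7 after cyclic loess. Their median was −0.14, against −0.03 over all genes, whose 5th to 95th percentile ran from −0.54 to 0.43. By 2-fold, 0 of 10 were higher or lower, where 1.21% of all genes were higher and 1.25% lower. Cyclic loess also gave 0 in each direction, where 1.3% of all genes were higher and 1.1% lower. Between both IL-4 arrays only Per2 was lower in Dap12-KO, at −1.12 by the brightest probe set and 1.81 by another, or −1.32 and 1.59 after cyclic loess, where 17.6% of all genes were lower. None of the 10 was higher there, against 10.9% of all genes. After cyclic loess Per2 was again the 1 lower and 0 were higher, where 5.33% of all genes were lower and 12.6% higher. The IL-4 response in Dap12-KO minus that in WT was −2.97 for Dbp, −1.28 for Nr1d2 and −1.05 for Clock, the 3 of 10 past 2-fold downward, where 14.8% of all genes were. None was past 2-fold upward, where 8.15% of all genes were. After cyclic loess Dbp alone was past 2-fold, at −2.47, with Nr1d2 at −0.74 and Clock at −0.43, where 5.58% of all genes were past it downward and 8.9% upward.

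**Figure D2:**
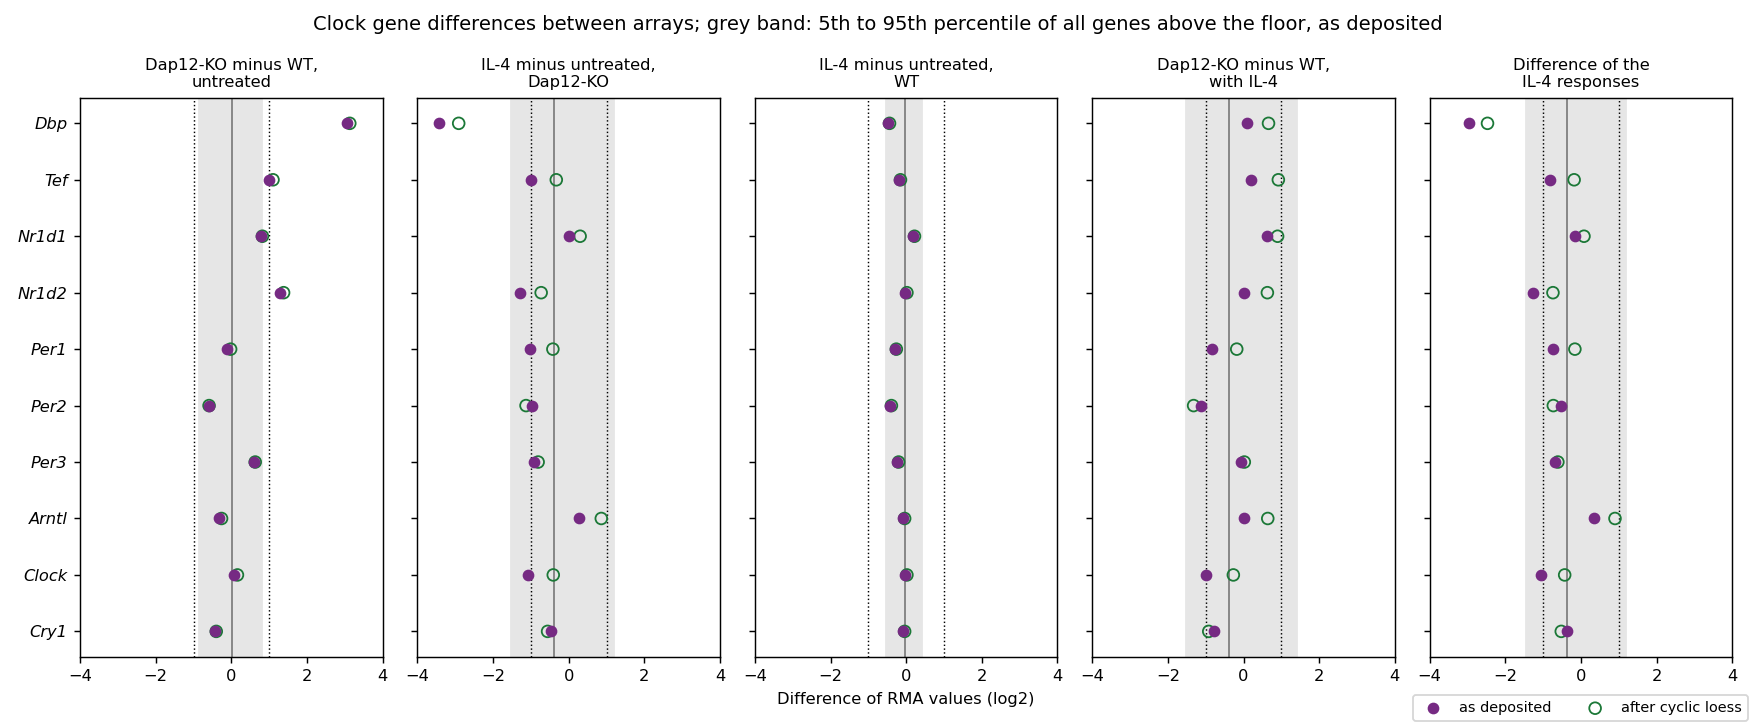
Difference of RMA values (log2, horizontal axis) of each clock gene (brightest probe set) in 5 comparisons. Filled points are values as deposited, open points values after cyclic loess, dotted lines mark 2-fold, the grey line is the median and the grey band the 5th to 95th percentile of all genes above the floor as deposited. Dbp lies outside the band at 3.06, −3.44 and −2.97 in the 3 comparisons that use the untreated Dap12-KO array, and at 0.09 between both IL-4 arrays, whereas in WT all 10 lie between −0.48 and 0.17.

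Among the 25 probe sets, 19 reached the floor on some array. Per3 holds 4 of these and Clock 3, so the 19 do not stand for separate genes. Between the untreated arrays 14 of these 19 were above 0 and 5 below, where the median gene differed by 0.03. By 2-fold, 4 were higher in Dap12-KO and 0 lower. Of all 22335 probe sets that name 1 gene and reached the floor, 2.74% were higher there and 3.7% lower. With IL-4 in Dap12-KO 15 were below 0 and 4 above, where the median gene was itself below 0, at −0.40. By 2-fold, 9 were lower and 1 higher, where 18.8% of all those probe sets were lower and 7.28% higher. After cyclic loess 4 were lower and 1 higher, where 7.51% of all were lower and 8.75% higher. The probe set that was higher belongs to Per2.

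Promoter sequences were at hand for 9 of the 10 genes, in 14 windows from 250 bases before to 50 bases after an annotated start (RefSeq, GRCm38.p6), some of which overlap. Each was searched on both strands for the E-box CACGTG, the related E'-box CACGTT, the D-box as TTATGTAA or TTACGTAA, the ROR response element, and the cAMP response element TGACGTCA, and no motif contains another. E-boxes stood in 4 of the 14 windows, where 7.15% of all 32851 windows hold one, and they belonged to Tef, Per1 and Cry1. E'-boxes were found for Nr1d1 and Cry1, where 4.68% of all windows hold one. No cAMP response element was found, and 1.79% of all windows hold that motif. The 4 windows printed here belong to the gene with the widest range, a gene that followed it with an E-box, the gene with D-boxes, and the activator that was lowest on the array where those were highest; motifs are in capitals.
Dbp, chr7:45704997-45705296, plus strand: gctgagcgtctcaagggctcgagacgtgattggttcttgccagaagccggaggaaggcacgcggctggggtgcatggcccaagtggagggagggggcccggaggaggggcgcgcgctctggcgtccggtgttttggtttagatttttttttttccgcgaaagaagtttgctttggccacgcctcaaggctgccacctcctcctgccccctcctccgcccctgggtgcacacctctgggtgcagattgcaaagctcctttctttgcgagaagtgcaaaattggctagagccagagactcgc
Tef, chr15:81802423-81802722, plus strand: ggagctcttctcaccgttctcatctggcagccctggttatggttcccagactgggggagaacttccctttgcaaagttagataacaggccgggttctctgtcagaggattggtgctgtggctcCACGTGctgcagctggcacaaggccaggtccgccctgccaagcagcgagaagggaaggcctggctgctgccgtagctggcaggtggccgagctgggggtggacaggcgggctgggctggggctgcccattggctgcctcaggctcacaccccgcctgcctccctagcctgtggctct
Per3, chr4:151044616-151044915, minus strand: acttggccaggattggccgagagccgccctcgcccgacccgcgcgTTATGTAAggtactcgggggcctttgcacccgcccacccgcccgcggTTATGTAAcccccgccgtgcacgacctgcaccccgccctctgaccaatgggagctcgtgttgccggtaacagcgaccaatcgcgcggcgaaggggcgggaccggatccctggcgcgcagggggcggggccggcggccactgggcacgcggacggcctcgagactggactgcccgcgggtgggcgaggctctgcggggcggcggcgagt
Arntl, chr7:113207261-113207560, plus strand: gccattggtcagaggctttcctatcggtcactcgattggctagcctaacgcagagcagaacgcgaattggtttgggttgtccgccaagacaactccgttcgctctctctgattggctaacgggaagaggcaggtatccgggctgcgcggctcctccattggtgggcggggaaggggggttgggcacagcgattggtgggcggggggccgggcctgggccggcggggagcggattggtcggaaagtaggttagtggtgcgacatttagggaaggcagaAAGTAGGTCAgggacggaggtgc

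The Tef window holds 1 E-box, which begins 127 bases before the start. The Per3 window holds 2 D-boxes, the motif that DBP and TEF bind, beginning 205 and 158 bases before the start, where 1.06% of all windows hold any. The Arntl window holds 1 ROR response element, the motif through which REV-ERB receptors repress, beginning 28 bases after the start, where 0.435% of all windows hold one. None of the searched letters occur in the Dbp window. A match is a stretch of letters and was not set against binding here.

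The other clock genes came from lists of known roles, counted by the brightest probe set of each gene. Of 11 other clock transcription factors and repressors, 8 of the 10 measured reached the floor. Between the untreated arrays 1 of the 8 was higher in Dap12-KO, Rora, and 0 were lower, where 3.12% of all genes were higher and 3.41% lower. Rora encodes a receptor that activates Arntl at the same elements where REV-ERB represses. It read 6.93 and 8.78 in Dap12-KO with IL-4 and untreated, against 6.91 and 7.31 in WT with IL-4 and untreated, so it too was highest in untreated Dap12-KO. Of the 7 Rora probe sets that reached the floor, 6 were higher there than in untreated WT, 2 of them by 2-fold. Of all probe sets, 2.74% were higher by 2-fold there and 3.7% lower. As deposited, 3 of the 7 Rora probe sets were lower by 2-fold with IL-4 in Dap12-KO and 1 was higher, by 1.96. In that comparison 18.8% of all probe sets were lower and 7.28% higher.

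Nfil3 encodes a repressor that competes with DBP and TEF at D-boxes. It read 9.02 and 7.03 in Dap12-KO with IL-4 and untreated, against 8.61 and 7.29 in WT with IL-4 and untreated. Both IL-4 arrays were thus high and both untreated arrays low, with IL-4 differences of 1.99 in Dap12-KO and 1.32 in WT, or 2.52 and 1.36 after cyclic loess. Nfil3 was the only gene of its list higher with IL-4 by 2-fold in either genotype, and Rora, at −1.86 in Dap12-KO or −1.49 after cyclic loess, the only one lower. As deposited, 8.04% of all genes were higher and 17.6% lower with IL-4 in Dap12-KO, and 1.21% and 1.25% in WT. After cyclic loess 9.79% were higher and 5.91% lower in Dap12-KO. The repressors Bhlhe40, Bhlhe41 and Ciart differed by less than 2-fold with IL-4 in both genotypes at their brightest probe sets. Bhlhe41 was at −0.04 in Dap12-KO, or 0.36 after cyclic loess, and at −0.72 in WT, where its second probe set was lower by 2-fold at −1.18. Cry2, the second cryptochrome, differed by −0.84 in Dap12-KO, or −0.34 after cyclic loess, and by 0.24 in WT. Npas2, a partner that can stand in for CLOCK, Arntl2, Hlf and Rorb lay near or below the floor.

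Enzymes that mark clock proteins for turnover were level between the untreated arrays, with 0 of 5 higher or lower, and differences from −0.38 for the ubiquitin ligase Btrc to 0.28 for the kinase Csnk1e. The kinase Gsk3b was lower with IL-4 in Dap12-KO at −1.30, or −0.64 after cyclic loess. Over all genes, 3.12% were higher and 3.41% lower between the untreated arrays. Among 6 outputs known to cycle in many mouse tissues, 1 was higher in untreated Dap12-KO and 0 were lower. That gene was Tsc22d3, which encodes the glucocorticoid-induced leucine zipper protein. It read 9.23 and 10.78 in Dap12-KO with IL-4 and untreated, against 9.30 and 9.14 in WT with IL-4 and untreated. As deposited, untreated Dap12-KO was the one high array for Tsc22d3, as for Dbp and Nr1d2, with a difference of 1.65. With IL-4 in Dap12-KO, Tsc22d3 and Noct were lower at −1.55 and −1.09, or −0.89 and −0.42 after cyclic loess. As deposited, 17.6% of all genes were lower in that comparison. Usp2, a deubiquitinase gene, did not follow Dbp, at 7.78 and 8.62 in Dap12-KO with IL-4 and untreated, against 8.14 and 9.02 in WT with IL-4 and untreated. Its second probe set was lower by 2-fold in untreated Dap12-KO than in untreated WT, at −1.15, and with IL-4 in both genotypes, at −1.31 in Dap12-KO and −1.72 in WT. Wee1, Tspan4 and Lonrf3 differed by 0.02, 0.39 and −0.36 between the untreated arrays.

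Tsc22d3 is also known to be induced by glucocorticoids, as is Per1. Of 9 listed glucocorticoid-induced genes, 1 was higher in untreated Dap12-KO, Tsc22d3 itself, and 2 were lower, the chaperone gene Fkbp5 at −1.19 and the metallothionein gene Mt2 at −2.02. Over all genes, 3.12% were higher and 3.41% lower in that comparison. The list median was −0.28 between the untreated arrays. The list therefore held genes on both sides, and Sgk1 and Klf9 differed by 0.58 and −0.28.

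Genes that REV-ERB receptors are known to repress in macrophages were taken as a further list of 5, of which 3 reached the floor. Mmp9, a gelatinase gene, was lower in untreated Dap12-KO at −4.24, and Ccl2, a monocyte-attracting chemokine gene, and Nlrp3, an inflammasome sensor gene, differed by −0.85 and −0.79. Mmp9 read 8.37 and 8.27 in Dap12-KO with IL-4 and untreated, against 12.37 and 12.52 in WT with IL-4 and untreated. As deposited, it was low on both Dap12-KO arrays, as Nr1d1 was high on both, whereas Nr1d2 was high only without IL-4. After cyclic loess Nr1d2 was higher in Dap12-KO than in WT with IL-4 too, by 0.63, against 0.9 for Nr1d1. Ccl2 was higher with IL-4 in both genotypes, by 1.84 in Dap12-KO, or 2.46 after cyclic loess, and 1.15 in WT. Whether the receptors had a part in these levels was not tested.

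**Figure D3:**
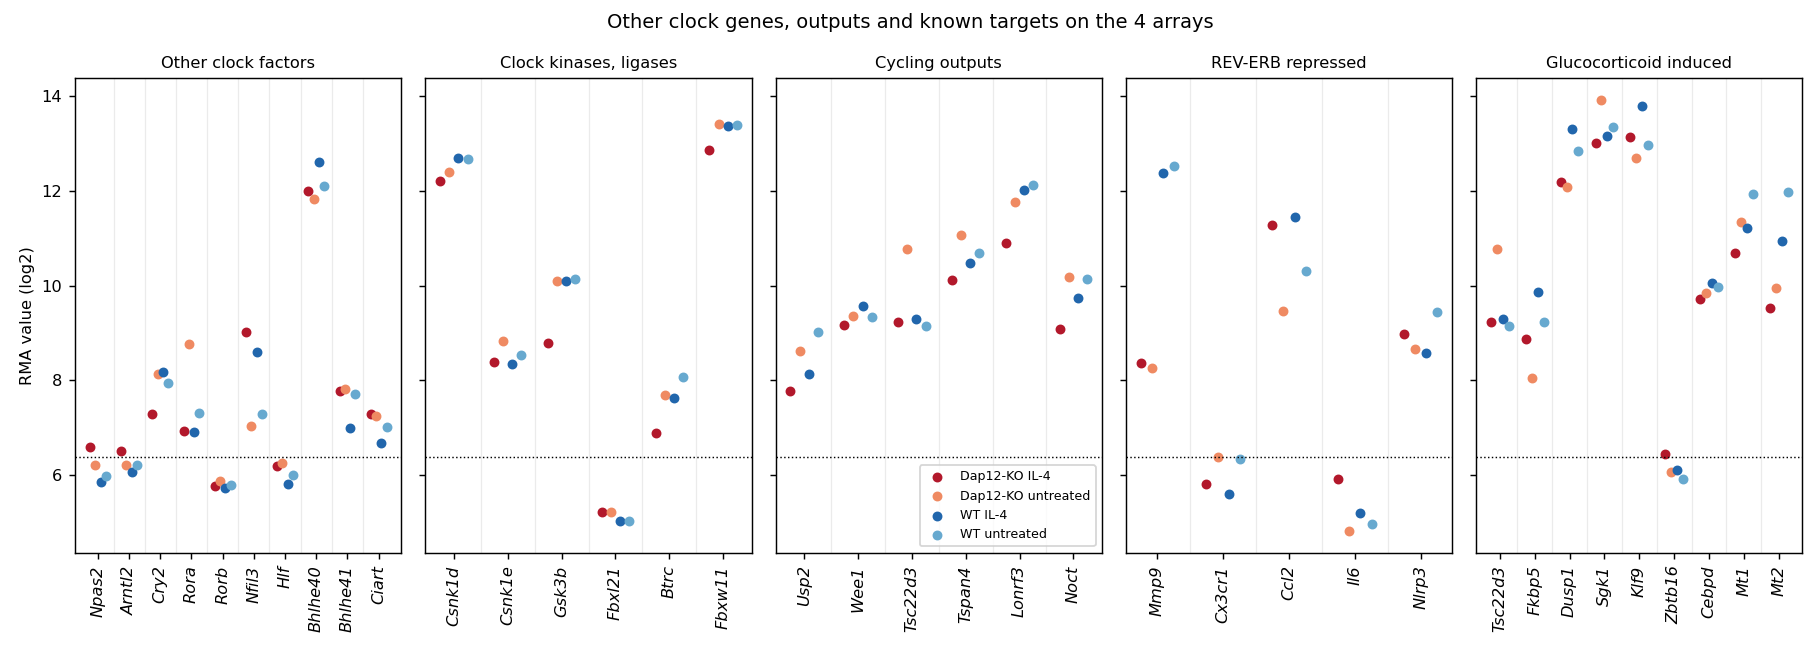
RMA value (log2, vertical axis) of the measured genes of 5 further lists (horizontal axis), with 1 point per array coloured by group and the level floor at 6.39 dotted. Rora at 8.78 and Tsc22d3 at 10.78 stand highest on the untreated Dap12-KO array, Nfil3 is higher on both IL-4 arrays, and Mmp9 is low on both Dap12-KO arrays at 8.37 and 8.27.

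The genes whose pattern over the 4 arrays lay nearest to that of Dbp were sought among the other 12766 genes above the floor, by Euclidean distance between values centred on each gene's own mean. The nearest 5 were Arhgap24 (distance 0.57 log2 units), Tmem154 (0.61), the chemokine receptor gene Cxcr4 (0.73), the prostaglandin D synthase gene Hpgds (0.78) and the ubiquitin ligase gene Fbxo32 (0.78). The same 5 genes were also the nearest 5 after cyclic loess. Of the clock genes Nr1d2 was nearest to Dbp, at rank 212 and a distance of 1.81, followed by Tef at rank 424 and Per3 at rank 824. For Arntl, whose range was small, the nearest 5 were Tcl1b1, Vta1, Xlr4c, Vangl2 and Adm2 at distances of 0.03 to 0.07, and after cyclic loess only Vta1, at rank 9, was among the nearest 10. Likeness over 4 arrays says little for a gene that hardly varied.

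**Figure D4:**
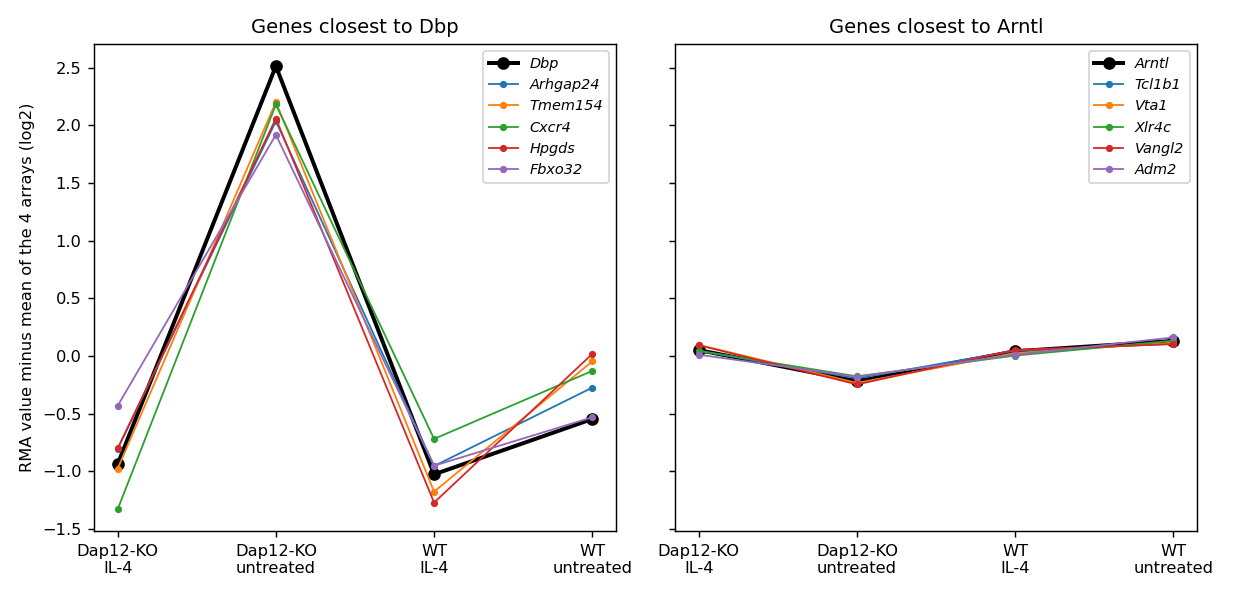
RMA value minus the gene's mean over the 4 arrays (log2, vertical axis) on each array (horizontal axis), for Dbp and Arntl (black) and the 5 genes closest to each (colours). The genes closest to Dbp, at distances of 0.57 to 0.78, are high on the untreated Dap12-KO array alone, and those closest to Arntl vary as little as Arntl does.

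Markers of other cells are given because they moved with the clock genes in part. Of 6 mast cell markers, Cma1, Cpa3 and Tpsb2 reached the floor and read 8.98, 8.0 and 7.49 in untreated Dap12-KO against 7.64, 7.07 and 6.63 in untreated WT, while Kit, Mcpt4 and Fcer1a stayed below it on all arrays. Their summed log2 values were 38.5 and 41.5 in Dap12-KO with IL-4 and untreated, against 37.5 and 37.8 in WT with IL-4 and untreated. B cell markers summed to 39.0 and 41.5 in Dap12-KO with IL-4 and untreated, against 38.6 and 38.4 in WT with IL-4 and untreated, with 5 of 5 measured above the floor on some array and 1, Ms4a1, higher by 2-fold in untreated Dap12-KO. Macrophage markers summed highest on the same array. Their sums were 96.0 and 103.2 in Dap12-KO with IL-4 and untreated, against 98.9 and 100.4 in WT with IL-4 and untreated. Between the untreated arrays 1 of 8, the efferocytosis receptor gene Mertk, was higher by 2-fold at 1.97, where 3.12% of all genes were. Itgam and Cd14 went the other way there, at −0.33 and −0.68. The part of these mast cell, B cell and macrophage markers in the clock gene levels was not tested. Sums for neutrophil, eosinophil, T and NK cell, dendritic cell and mesothelial and fibroblast markers were not highest on that array, with untreated Dap12-KO at 44.6, 27.9, 37.1, 33.6 and 40.8 against untreated WT at 44.8, 27.7, 37.3, 34.5 and 41.3. On the Dap12-KO array with IL-4 these sums were 48.5, 28.8, 40.6, 34.7 and 43.2, against 43.4, 28.6, 37.0, 34.8 and 41.2 on the WT array with IL-4. The neutrophil, eosinophil, T and NK cell and mesothelial and fibroblast sums were thus highest on the Dap12-KO array with IL-4. On that array Clock, Per1, Per2, Per3 and Cry1 were lowest as deposited at their brightest probe sets, though another Per2 probe set was highest. The part of these markers in those levels was not tested. There 5 of 7, 2 of 5, 3 of 6 and 2 of 7 measured markers, in that order, reached the floor. S100a8 and Siglecf, the brightest neutrophil and eosinophil markers over the 4 arrays, were instead lowest there, at 7.86 and 6.54. The 25th percentile of all values was 5.47 on that array, against 5.29 to 5.31 on the other 3.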

How the data were processed

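Total RNA of 4 macrophage samples, 1 per group by sample title, was labelled after 2 cycles of amplification, per the labels' protocols. The deposited values are on the log2 scale, 1 per probe set and array. The submitters' processing notes name RMA. The version is not given in the sources used here. RMA and amplification both act on the size of differences. Probe-level files were not used, so no detection call stands behind a value. Of 45101 probe sets 34945 named 1 gene, and 34741 of these had symbols updated through Entrez identifiers to RefSeq (GRCm38.p6). Probe sets naming several genes (932), none, or controls (64) were left out. Differences were computed for 5 comparisons with Python 3.11.15, numpy 2.4.6 and pandas 2.3.3, without a test, since 1 array stood for each group. Scaling used limma 3.58.1 in R 4.3.3 (cyclic loess, 3 iterations). The counting and scaling were tested on simulated data. Figures used matplotlib 3.10.9.

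The members, the 5 further lists and the rule for named genes (all members, all list genes, Tyrobp and the 5 genes nearest to Dbp and to Arntl) were chosen with earlier results of these data known. Other cell type markers were named where their list stood out. The alternatives were the median over probe sets, single probe sets, cyclic loess, quantile normalization, median centring, no floor, a floor at the 75th percentile (8.38) and a 3-fold threshold. Leaving out the Dap12-KO array with IL-4 was added after its narrower spread had been seen.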

Additional observations from a re-analysis of the deposited data

Results flagged for a closer look

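With 1 array per group the following differences of sign were not tested. Nr1d2 was 1.28 higher in Dap12-KO than in WT untreated and 0.0 apart with IL-4, just below 0 before rounding and 0.63 after cyclic loess. Per3 differed between genotypes by 0.6 untreated and −0.08 with IL-4. After cyclic loess these were 0.63 and 0.02, with the same sign. Clock differed between genotypes by 0.06 untreated and −0.99 with IL-4, which cyclic loess put at 0.16 and −0.27. Arntl differed between genotypes by −0.34 untreated and 0.01 with IL-4, and with IL-4 it differed from untreated by 0.27 in Dap12-KO and −0.08 in WT. All of these were picked out because the signs were opposite in the 2 genotypes or the 2 conditions, which small differences around 0 meet easily.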

How the results depend on the processing

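Over 78 recounts of clock genes past 2-fold, 65 stayed within 1.5 times the count as reported and 13 did not. The 2 clock genes higher in untreated Dap12-KO became 1 by the median over probe sets and 1 at 3-fold. The 4 lower with IL-4 in Dap12-KO became 2 after cyclic loess, 2 after quantile normalization, 7 after median centring and 1 at 3-fold. The 1 lower in Dap12-KO with IL-4, Per2, became 0 by the median over probe sets, 0 with the floor at the 75th percentile, 0 at 3-fold and 2 after median centring. The 3 with a lower IL-4 response in Dap12-KO became 1 after cyclic loess, 1 after quantile normalization and 1 at 3-fold. The stricter floor and threshold count fewer genes by construction, and for the other settings the cause was not tested. All 10 clock genes had reached the floor, so the 10 recounts without a floor could not change. For single genes, 267 of 315 recomputed differences moved by less than 1.5-fold, 45 moved by more and 3 reversed. The 267 include all 50 under median centring, which shifts all genes of a comparison alike, with array medians of 6.33 to 6.48. They also include 20 as-deposited differences without the Dap12-KO array with IL-4. Neither group could be expected to move by 1.5-fold. Reversed here means a change of sign in a difference reported at 2-fold or more. Smaller differences that changed sign were counted with the rest, such as Per2 with IL-4 in Dap12-KO, at −0.96 and 1.35. All 3 reversals were Per2 between both IL-4 arrays, at 0.07 by the median over probe sets and 1.81 and 0.07 by its other probe sets. All 8 counts without the Dap12-KO array with IL-4 stayed within 1.5 times. Of these, 4 were as deposited and could change only through probe set choice or floor, so they say little about stability. No paired analysis was possible because each group had 1 array and the titles carry no replicate numbers. Signal over background is not known for any value, and Per2, Per3 and Cry1 lay near the level floor.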
